A study of Mus musculus with 13 samples.

Results

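Long noncoding RNAs are transcripts that are not translated and act as RNA, for example as scaffolds of nuclear bodies or as hosts of small RNAs that are cut out of their introns. Of 57010 genes listed, 9 that are often studied in cell cycle arrest, the p53 response or genomic imprinting were taken by symbol from the mouse GRCm39 annotation: Snhg11, Malat1, Neat1, Meg3, H19, Gas5, Snhg1, Pvt1 and Trp53cor1. All 9 had enough reads to be tested, among 15034 genes in total and 997 long noncoding RNA genes. Snhg11 was chosen by its counts in these libraries, in which senescent cells were already known to be above control cells, so its values in all groups are a description without a test. The list as a whole was drawn up with earlier results of these data known, so tests of the others are not independent evidence.

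Malat1 is a nuclear RNA concentrated in nuclear speckles, and Neat1 is the architectural RNA around which paraspeckles are built. Meg3 and H19 are imprinted RNAs expressed from the maternal chromosome, H19 beside the growth factor gene Igf2 and Meg3 beside Dlk1. Gas5, Snhg1 and Snhg11 host small nucleolar RNAs (snoRNAs) in their introns, and Gas5 takes its name from growth arrest, in which it accumulates. Pvt1 lies beside Myc, and Trp53cor1, also called lincRNA-p21, is a p53-induced RNA beside Cdkn1a.

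Bulk RNA-Seq was performed on WT mouse embryonic fibroblasts (MEFs), primary connective tissue cells grown from embryos, in 4 groups of 3 samples that the labels number mouse 4, 5 and 6. Control MEFs were untreated and not senescent, and the other groups were made senescent with etoposide, a topoisomerase inhibitor that breaks DNA (2 μM for 24 h, then 5 days in normal medium). Senescent MEFs (SnCs) were untreated or were given Fucoidan-FV, a polysaccharide from brown seaweed, at a dose of 100 μg/mL or of 300 μg/mL, and RNA was extracted after 12 h. The labels write Eo for the untreated SnCs and Eto for the treated ones, and both were read as etoposide from the methods. The vehicle of the control MEFs is not given in the labels, and no group received Fucoidan-FV without etoposide.

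The 13 libraries held 22782536 to 31278750 expected counts. Library 5(1) and library 5(2) of control mouse 5 were summed. Libraries differed in the reads counted on genes whose exonic sequence belongs to a single annotated transcript. Where this held for over 95% of the sequence (1162 genes), the log2 deviation of a library from the average library had a median between −1.32 (control mouse 6) and 1.10 (mouse 5, 100 μg/mL). Library 5(1) stood at −1.09 and library 5(2) at 0.71. The share of such sequence was 1.24% in H19 and in Gas5, 14.1% in Snhg1, 40.1% in Pvt1, 58.7% in Malat1, 62.2% in Trp53cor1, 62.8% in Meg3, 65.7% in Snhg11 and 83.3% in Neat1. All 10 fibroblast markers listed had counts in every group, with summed levels of 31846 to 53789 CPM (counts relative to the TMM-scaled total of the library), although Lum was at 0 in some libraries and Dcn at 0.73 to 1.57 CPM in control MEFs. Of the other cell types, 5 epithelial markers summed to at most 2.04 CPM, 5 endothelial markers to at most 11.7 CPM and 7 macrophage markers to at most 14.3 CPM. The sum of 6 neural markers was larger, 585 to 1097 CPM in control MEFs, most of it Nes (749 ± 279 CPM). The sum of 7 skeletal muscle markers was 22.0 to 74.9 CPM in control MEFs, 72.5 to 267 CPM in untreated SnCs and 37.1 to 97.3 CPM with Fucoidan-FV. Most of it was Des, an intermediate filament gene, with 52.8 ± 27.4 CPM in control MEFs and 142 ± 108 CPM in untreated SnCs, and Myf5, a defining gene of muscle precursors, had 0 counts throughout. In bulk RNA, fewer cells of a type and less RNA per cell cannot be told apart.

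The promoters of 5 of the 9 RNAs, as 300 bases (250 before and 50 after the annotated start), were in the RefSeq table of the GRCm38.p6 build, in 7 windows. They are shown for the RNA that was absent from control cells (Snhg11), for one that was higher in treated SnCs than in control MEFs (Meg3), for one that was lower (Snhg1) and for one without a called difference (Gas5), 5′ to 3′ on the strand of the gene. Capitals mark a TATA box, a CCAAT box, a GC box or a cAMP response element on either strand.
Snhg11, chr2:158375463-158375762, plus strand: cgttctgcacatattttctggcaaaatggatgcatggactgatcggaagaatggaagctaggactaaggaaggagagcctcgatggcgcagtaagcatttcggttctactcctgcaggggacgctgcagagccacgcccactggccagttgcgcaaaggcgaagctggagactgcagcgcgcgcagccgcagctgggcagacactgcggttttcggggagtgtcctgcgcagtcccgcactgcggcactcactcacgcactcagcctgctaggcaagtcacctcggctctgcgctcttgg
Meg3, chr12:109540746-109541045, plus strand: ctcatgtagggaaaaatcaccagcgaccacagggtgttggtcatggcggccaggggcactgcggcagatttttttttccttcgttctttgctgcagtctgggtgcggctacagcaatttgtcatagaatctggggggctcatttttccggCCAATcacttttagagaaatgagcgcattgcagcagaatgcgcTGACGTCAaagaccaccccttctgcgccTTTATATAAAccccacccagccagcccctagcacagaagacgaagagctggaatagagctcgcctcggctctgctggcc
Snhg1, chr19:8723237-8723536, plus strand: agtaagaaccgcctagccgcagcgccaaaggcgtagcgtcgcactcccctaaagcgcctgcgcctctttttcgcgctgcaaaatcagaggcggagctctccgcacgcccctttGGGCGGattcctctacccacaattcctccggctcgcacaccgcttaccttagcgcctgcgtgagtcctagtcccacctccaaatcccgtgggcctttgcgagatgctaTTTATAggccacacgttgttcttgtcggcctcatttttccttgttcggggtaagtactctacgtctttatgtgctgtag
Gas5, chr1:161034916-161035215, plus strand: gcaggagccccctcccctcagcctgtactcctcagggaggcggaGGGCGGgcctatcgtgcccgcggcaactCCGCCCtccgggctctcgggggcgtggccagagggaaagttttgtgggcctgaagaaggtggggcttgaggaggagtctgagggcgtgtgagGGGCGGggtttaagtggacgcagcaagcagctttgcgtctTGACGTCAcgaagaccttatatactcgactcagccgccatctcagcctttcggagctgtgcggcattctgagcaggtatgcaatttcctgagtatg

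The cAMP response element, searched as TGACGTCA, stood 57 bases before the start of Meg3 and 46 bases before that of Gas5, so 2 of the 7 windows held it, beside 1.79% of all 32851 promoters in the table. A TATA box, searched as TATAAA, stood 29 bases before the starts of Meg3 and Snhg1, in both read on the opposite strand. In Meg3 another match, on the strand of the gene, overlapped it 25 bases before the start. Of all promoters, 13.6% held this motif. GC boxes, searched as GGGCGG, were found in 3 of the 7 windows (35.7% of all promoters). A CCAAT box, searched by these letters, was in 1 (37.4% of all promoters). The Gas5 window shown was the only one of the 7 whose transcript starts with C followed by at least 4 pyrimidines, the 5′ TOP start of growth-dependent RNAs (2.51% of all promoters, searched on the strand of the gene only). A perfect p53 response element, with its parts adjoining, was in 0 of the 7 windows and in 0.00913% of all promoters. These matches describe letters in the windows and were not tied to binding.

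Levels per length were compared as TPM, in which reads are divided by transcript length. Gas5 stood first in control MEFs with 370 ± 8.60 TPM (SD, n = 3), followed by Snhg1 (155 ± 27.5 TPM), Meg3 (150 ± 31.9 TPM) and H19 (137 ± 17.0 TPM), whose ranges overlapped each other but not that of Gas5. Malat1 had 55.5 ± 39.9 TPM, Pvt1 21.3 ± 3.89 TPM and Neat1 14.3 ± 2.65 TPM, and the ranges of Pvt1 and Neat1 overlapped. Trp53cor1 was near the bottom with 0.78 ± 0.70 TPM, and Snhg11 was listed at 0. Untreated SnCs kept Gas5 first (530 ± 36.0 TPM) and Meg3 second (249 ± 7.74 TPM), with ranges that did not overlap, while the ranges of Snhg1, H19 and Malat1 overlapped.

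With Fucoidan-FV the order at the top was different. H19 averaged 1264 ± 873 TPM at 100 μg/mL and 1224 ± 670 TPM at 300 μg/mL, which placed it at rank 108 and 116 among all genes, after rank 1598 in untreated SnCs and 1100 in control MEFs. Its range overlapped that of Gas5, the next RNA, at both doses (584 ± 62.2 and 608 ± 64.2 TPM), and that of Gas5 overlapped Meg3 (466 ± 127 and 447 ± 148 TPM). Snhg11 stayed last in every group, and its range overlapped that of Trp53cor1 in untreated SnCs and at 300 μg/mL.

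**Figure D1:**
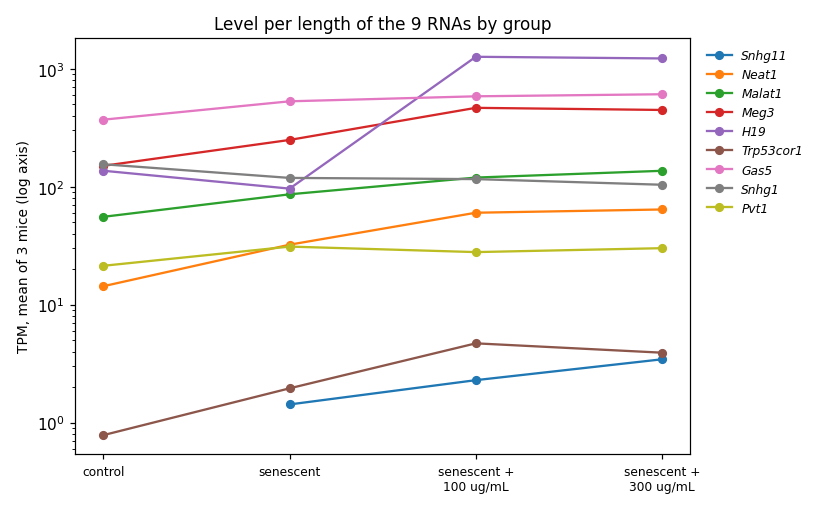
Mean level per length (TPM of 3 mice, log axis) of the 9 RNAs in each of the 4 groups. H19 goes from 96.3 TPM in untreated SnCs to 1264 TPM at 100 μg/mL, and Snhg11 has no point in control MEFs because it was listed at 0 there.

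The first comparison asked which of these RNAs differ between untreated senescent and control MEFs. Neat1 rose 2.25-fold (ratio of mean CPM) and was the only DEG among the 8 RNAs tested, with 1 higher and 0 lower. A DEG here is a gene that edgeR's quasi-likelihood test puts under an adjusted p of 0.05 with a log2 fold change beyond 1 in either direction. Of all genes tested, 8.42% were DEGs in this comparison (4.47% higher and 3.95% lower), and of the long noncoding RNA genes 3.11%. For 4 of the 8, senescent and control samples had separate ranges in CPM (Neat1, Meg3 and Pvt1 higher, Snhg1 lower), beside 27.1% of all genes. The median log2 fold change of the 8 was 0.54, beside 0.07 over all genes, and 6 of the 8 estimates were above 0.

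Neat1 (chr19:5874736-5897132, minus strand, GRCm39) had 37.9, 33.8 and 38.6 CPM in control mice 4, 5 and 6. In untreated SnCs it had 87.4, 103 and 57.5 CPM, so that the lowest senescent value stood above the highest control value. Its log2 fold change was 1.17 ± 0.23 (SE, edgeR adjusted p = 0.00505), and it was higher in 3 of 3 mice, by 2.30-, 3.06- and 1.49-fold. The call was lost with offsets for the library difference in single-transcript sequence (log2 fold change 1.15, adjusted p = 0.0732, and 1.18, adjusted p = 0.113, with the mouse as a block as well), and without senescent mouse 5 the log2 fold change fell to 1.00, just under the fold threshold (adjusted p = 0.0209).

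Malat1 (chr19:5845717-5853602, minus strand), the neighbour of Neat1, had 50.5, 43.7 and 76.7 CPM in control MEFs and 128, 134 and 49.2 CPM in untreated SnCs. Mice 4 and 5 were 2.54- and 3.06-fold higher in SnCs and mouse 6 was 0.64-fold, so the groups overlapped and the difference of 0.87 ± 0.34 (log2 fold change, SE) did not pass (edgeR adjusted p = 0.13). Without senescent mouse 6 it passed, with a log2 fold change of 1.21 and an edgeR adjusted p of 0.0207. The transcript length that RSEM estimated for Malat1 was 3089 bases in that senescent mouse 6, above the other senescent samples (1558 and 2032 bases), and 1189 bases in control mouse 6.

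The 12 genes of paraspeckle proteins, which assemble on Neat1, were lower in untreated SnCs in their estimates, 12 of 12, with 5 DEGs. Over all genes tested, 3.95% were lower DEGs. The median log2 fold change of the 12 was −0.81, against 0.07 over all genes. Sfpq, a core component of the paraspeckle, fell by 1.23 on the log2 scale (SE 0.20, edgeR adjusted p = 0.00146), from 304 to 380 CPM to 118 to 160 CPM. Rbm14 (log2 fold change −1.12), Ewsr1 (−1.04) and, named after its value was seen, Dazap1 were DEGs as well. The count of 5 went down to 3 without control mouse 6, without senescent mouse 4, with library 5(2) alone for control mouse 5 and with library 5(1) and library 5(2) as separate samples. Nono, the partner of Sfpq, had a log2 fold change of −0.78 (adjusted p = 0.00901), below the fold threshold, and Pspc1 one of −0.38 (adjusted p = 0.326).

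**Figure D2:**
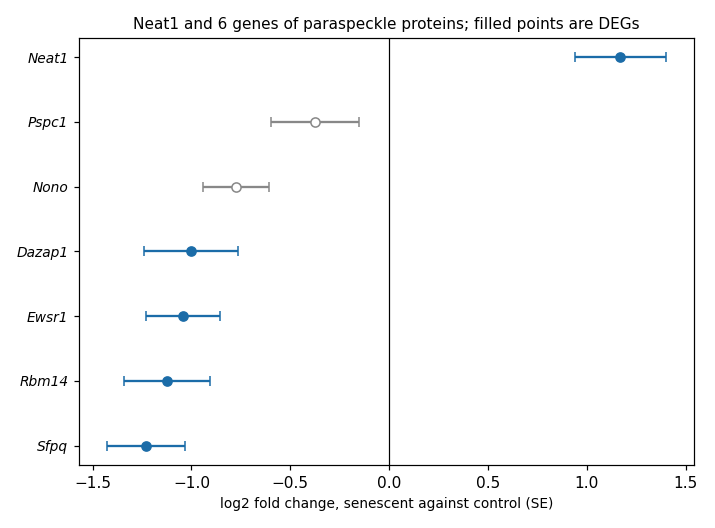
Log2 fold change with SE (edgeR, senescent against control MEFs) of Neat1 and of 6 of the 12 paraspeckle protein genes, those named in the text, with filled points for DEGs. Neat1 lies at 1.17 and the 6 protein genes lie below 0, with Sfpq at −1.23.

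Snhg11 (chr2:158217558-158228071, plus strand) was the RNA whose counts in these libraries had chosen it. It had 0 counts in the 3 control mice, library 5(1) and library 5(2) included. In untreated SnCs it had 250, 143 and 25 counts in mice 4, 5 and 6 (7.99, 6.16 and 0.85 CPM). Mouse 6 was thus the lowest of the group by a wide margin. Set against a floor of 3 counts over the control group, the 418 counts of the 3 senescent samples pooled were 159-fold higher. This ratio describes the counts that chose Snhg11 and is not a bound on a difference between the groups. It is of the pooled group and not of each sample, since mouse 6 alone lies below it. The floor covers counting error only, and not the spread between mice.

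Meg3 (chr12:109506877-109538165, plus strand) had 129 to 211 CPM in control MEFs and 235 to 270 CPM in untreated SnCs. The ranges did not overlap, but the log2 fold change of 0.60 ± 0.26 (SE) did not pass (edgeR adjusted p = 0.168). On the protein-coding side of the same imprinted cluster, Dlk1, a transmembrane protein of the Notch ligand family, fell by 1.78 (log2, SE 0.35, edgeR adjusted p = 0.00504), from 46.9 to 64.6 CPM to 12.1 to 18.2 CPM. Rian, another noncoding RNA of the cluster, had 752 ± 164 CPM and 622 ± 196 CPM, and its groups overlapped.

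H19 (chr7:142129262-142133957, minus strand) had 223, 221 and 161 CPM in control mice 4, 5 and 6. Untreated SnCs had 179, 116 and 122 CPM, lower in 3 of 3 mice but overlapping as groups, with a log2 fold change of −0.54 ± 0.51 (SE, edgeR adjusted p = 0.581). Igf2, the growth factor gene with which H19 shares an imprinting control region, had 93.4 ± 49.9 CPM in control MEFs and 39.9 ± 20.7 CPM in SnCs (adjusted p = 0.156).

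Among the snoRNA hosts, Snhg1 (chr19:8700319-8703812, plus strand) had 48.7, 46.8 and 77.0 CPM in control MEFs and 26.7, 44.1 and 46.0 CPM in untreated SnCs. All senescent values lay under the control values in CPM, with a log2 fold change of −0.56 ± 0.28 (SE) that did not pass (edgeR adjusted p = 0.241). In TPM the ranges of Snhg1 overlapped, at 134 to 186 TPM and 97.3 to 138 TPM. Gas5 (chr1:160861793-160866118, plus strand) had 113 ± 19.5 CPM in control MEFs and 125 ± 13.4 CPM in SnCs, and its ranges overlapped (adjusted p = 0.734). In TPM, which was not tested, Gas5 was higher in SnCs without overlap, at 489 to 558 TPM against 365 to 380 TPM. Its separation thus depended on the measure. Of 15 other snoRNA host genes tested, 0 were DEGs by edgeR and 12 had estimates below 0, and their median estimate was −0.45 (log2 fold change).

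Of the pair of RNAs named for p53 or found beside Myc, Trp53cor1 (chr17:29233594-29298284, minus strand) had few counts, 16, 70 and 0 in control mice 4, 5 and 6 and 73, 34 and 29 in untreated SnCs. Its log2 fold change was 1.17 ± 0.88 (SE, edgeR adjusted p = 0.464). Its span overlaps that of Srsf3 on the opposite strand by 11027 bases, Srsf3 had up to 12286 counts in a library, and it is not known whether the counting used strand, so its value is uncertain. Cdkn1a, the cell cycle inhibitor next to Trp53cor1, rose by 1.82 on the log2 scale (SE 0.18, adjusted p = 6.8e-05), from 373 to 527 CPM to 1520 to 1866 CPM.

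Pvt1 (chr15:61888639-62249945, plus strand) had 18.0 to 20.8 CPM in control MEFs and 24.4 to 31.0 CPM in untreated SnCs. The groups did not overlap, and the log2 fold change of 0.49 ± 0.25 (SE) did not pass (edgeR adjusted p = 0.252). Its neighbour Myc, a growth-promoting transcription factor, had 108 to 166 CPM and 57.1 to 75.7 CPM, with a log2 fold change of −0.96 that had an adjusted p of 0.0077 but stood under the fold threshold.

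**Figure D3:**
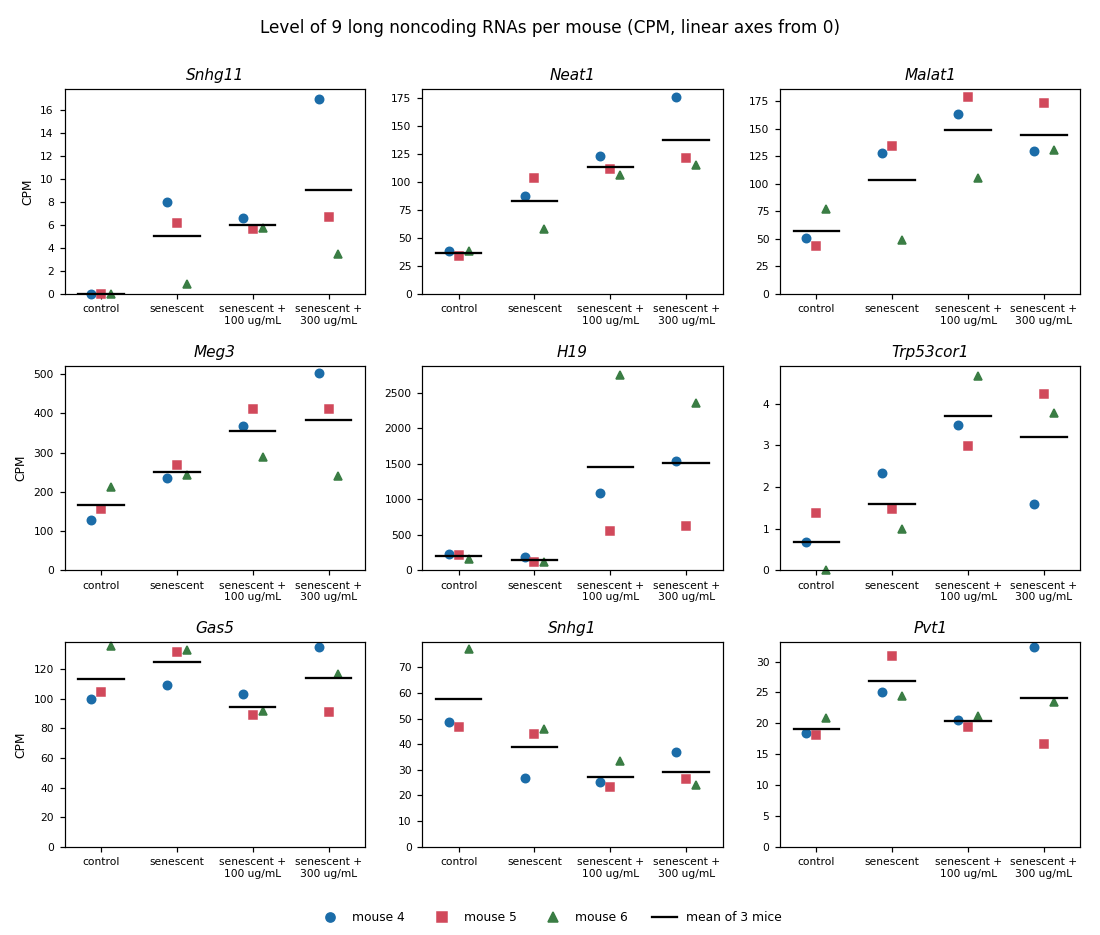
CPM of the 9 RNAs (linear axes from 0) in the 4 groups, with a symbol for each mouse and a line at the mean of 3. H19 lies between 548 and 2747 CPM in the 6 treated samples and at 179 CPM or less in untreated SnCs, while Snhg11 lies at 0 in control MEFs.

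The next question was which of the RNAs differ when SnCs are given Fucoidan-FV. H19 rose at both doses, 10.5-fold at 100 μg/mL and 10.8-fold at 300 μg/mL (ratio of mean CPM), and was the only DEG of 8 at either dose. DEGs made up 2.69% of all genes tested at 100 μg/mL (1.1% higher and 1.6% lower) and 1.64% at 300 μg/mL (0.752% higher and 0.885% lower), and 1.3% and 0.702% of the long noncoding RNA genes. Neat1, Malat1 and Meg3 had higher estimates at both doses, which did not pass the test. The median log2 fold change of the 8 was 0.48 at 100 μg/mL and 0.55 at 300 μg/mL, beside −0.02 and 0.00 over all genes. Both doses were compared with the same untreated libraries.

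H19 had 5617, 2688 and 3583 counts in untreated SnCs of mice 4, 5 and 6 (179, 116 and 122 CPM). At 100 μg/mL it had 34737, 14470 and 79390 counts (1087, 548 and 2747 CPM), and at 300 μg/mL 39739, 17505 and 56735 counts (1541, 623 and 2353 CPM). Each treated value stood above each untreated value, with mouse 5 lowest and mouse 6 highest at both doses.

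The log2 fold change of H19 was 3.39 ± 0.56 (SE, edgeR adjusted p = 0.00719) at 100 μg/mL and 3.44 ± 0.56 (adjusted p = 0.00966) at 300 μg/mL. Per mouse it was 6.06-, 4.73- and 22.6-fold higher at 100 μg/mL and 8.58-, 5.37- and 19.3-fold higher at 300 μg/mL. Without mouse 6 at 100 μg/mL the log2 fold change was 2.55 (adjusted p = 0.0222), and without mouse 6 at 300 μg/mL it was 2.96 (adjusted p = 0.0479). H19 was a DEG at both doses under each alternative tried. The summed level of 6 neural markers was 644 to 1080 CPM in untreated SnCs and 219 to 248 CPM with Fucoidan-FV, most of it Nes, which fell at both doses. The list did not move as one: Map2, a neuronal cytoskeleton gene, rose from 2.34 ± 1.85 CPM to 19.1 ± 4.31 and 21.8 ± 2.24 CPM, and 3 of the 4 neural markers tested had estimates above 0 at each dose. The sum of 5 endothelial markers was 1.47 to 3.30 CPM in untreated SnCs and 5.23 to 11.7 CPM with Fucoidan-FV. Tek made up most of the sum in the treated groups only, with 0.48 ± 0.35 CPM in untreated SnCs and 5.87 ± 1.81 CPM at 100 μg/mL. The part of these markers in the H19 result was not tested.

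H19 is the host of miR-675, whose mature forms are shown with the seed (bases 2 to 8) in capitals, from RefSeq (GRCm38.p6), because this small RNA is the best known product of the RNA that rose.
mmu-miR-675-5p: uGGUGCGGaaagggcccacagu
mmu-miR-675-3p: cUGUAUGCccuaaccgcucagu
The seeds of the arms differ. The miRNA itself could not be followed, since its gene was listed at 0 counts in every library, like the other 2 miRNA genes and the 20 snoRNA genes that lie within the 9 RNAs.

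Around H19, Igf2 had 58.9, 43.2 and 17.8 CPM in untreated SnCs, 112, 53.4 and 133 CPM at 100 μg/mL and 164, 61.0 and 131 CPM at 300 μg/mL, in mice 4, 5 and 6. It was higher in each treated mouse than in the same untreated mouse, but its log2 fold changes of 1.32 ± 0.52 and 1.57 ± 0.52 (SE) did not pass (edgeR adjusted p = 0.176 and 0.154). Mrpl23, a mitochondrial ribosomal protein gene in the same region, fell by 1.11 on the log2 scale at 100 μg/mL (SE 0.29, adjusted p = 0.0496). This adjusted p lay close to the threshold, and the fall was uneven between mice. Mrpl23 had 20.3, 34.3 and 46.3 CPM in untreated mice 4, 5 and 6 and 16.7, 15.2 and 14.8 CPM at this dose. At 300 μg/mL its log2 fold change was −0.84 (adjusted p = 0.165).

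The imprinted gene network is a group of imprinted genes often expressed together with H19, of which 19 were tested. At 100 μg/mL 4 rose and 1 fell, and at 300 μg/mL 2 rose, with medians of 0.83 and 0.74 (log2 fold change) beside −0.02 and 0.00 over all genes. In senescent against control MEFs 1 of the 19 had risen (Dcn) and 2 had fallen, Dlk1 and the amino acid transporter Slc38a4, which fell by 4.07 (log2, edgeR adjusted p = 1.72e-05). Mest, an imprinted gene of the mesoderm, went from 5.24, 5.47 and 1.73 CPM in untreated SnCs to 46.4, 31.4 and 88.5 CPM at 100 μg/mL and 82.4, 36.8 and 74.7 CPM at 300 μg/mL, with log2 fold changes of 3.74 (SE 0.50, edgeR adjusted p = 0.00274) and 3.96 (SE 0.51, adjusted p = 0.00244). Cdkn1c, an imprinted cell cycle inhibitor that at 100 μg/mL was named after its value was seen, rose by 1.34 and 1.64 on the log2 scale (adjusted p = 0.00448 and 0.00175), from 30.5 to 38.3 CPM to 76.7 to 99.2 CPM and 89.5 to 121 CPM.

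The other DEGs of this list at 100 μg/mL were Dcn (2.33 on the log2 scale) and Peg3 (1.80), which rose, and Dlk1, which fell by 1.63. The call of Dlk1 at this dose was lost without any 1 of the 6 samples compared (edgeR adjusted p = 0.0512 to 0.117) and with only these groups in the fit (adjusted p = 0.112). Mest at both doses and Cdkn1c at 300 μg/mL kept their calls under each alternative tried. The count of 4 ranged from 2 to 8 over the alternatives. It was 2 without untreated mouse 4, without any of the 3 treated mice and with the mouse as a block, which ended the calls of Dcn (edgeR adjusted p = 0.0869) and Peg3 (adjusted p = 0.0924).

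**Figure D4:**
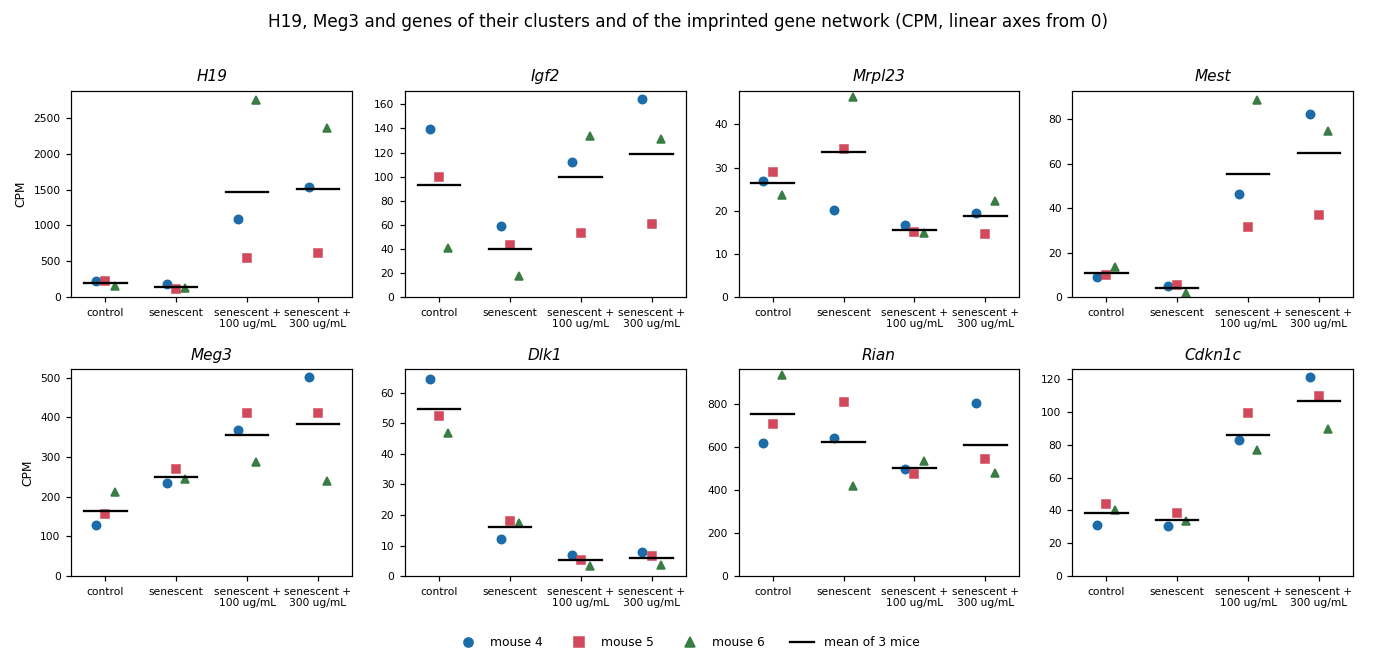
CPM (linear axes from 0) of H19, Igf2, Mrpl23 and Mest in the upper row and of Meg3, Dlk1, Rian and Cdkn1c in the lower row, by group, with a symbol for each mouse and a line at the mean of 3. H19, Mest and Cdkn1c are higher in the 6 treated samples than in untreated SnCs, and Dlk1 is at 7.99 CPM or less in them.

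Neat1 had 123, 112 and 106 CPM in mice 4, 5 and 6 at 100 μg/mL and 175, 121 and 115 CPM at 300 μg/mL, each above the highest untreated value of 103 CPM. The log2 fold changes of 0.45 ± 0.23 and 0.73 ± 0.23 (SE) against untreated SnCs did not pass (edgeR adjusted p = 0.289 and 0.127). Malat1 had 164, 179 and 105 CPM and 130, 173 and 130 CPM, and its groups overlapped those of untreated SnCs at both doses, with estimates of 0.52 and 0.48 (log2 fold change). Of the 12 paraspeckle protein genes, 0 were DEGs at either dose by edgeR.

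Meg3 had 368, 412 and 289 CPM at 100 μg/mL, above the untreated values, and 503, 411 and 240 CPM at 300 μg/mL, where mouse 6 stood within the untreated range. The estimates were 0.51 ± 0.26 and 0.62 ± 0.26 (log2 fold change, SE, edgeR adjusted p = 0.299 and 0.265). Rian had 503 ± 30.6 CPM and 609 ± 173 CPM, which overlapped its untreated values.

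The values of Snhg11 with Fucoidan-FV, given without a test, were 212, 148 and 165 counts at 100 μg/mL and 437, 187 and 83 counts at 300 μg/mL in mice 4, 5 and 6. They correspond to 6.64, 5.60 and 5.71 CPM and to 16.9, 6.65 and 3.44 CPM, which overlapped the untreated values of 0.85 to 7.99 CPM. Trp53cor1 had 111, 79 and 135 counts and 41, 119 and 91 counts, with estimates of 1.22 ± 0.87 and 1.00 ± 0.87 (log2 fold change, SE) that did not pass.

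Gas5 had 94.4 ± 7.52 CPM at 100 μg/mL, with each value under its untreated range (125 ± 13.4 CPM), and 114 ± 22.1 CPM at 300 μg/mL. In TPM, Gas5 was not lower at 100 μg/mL (544 to 656 TPM) than in untreated SnCs (489 to 558 TPM), and the ranges overlapped. Pvt1 had 19.4 to 21.2 CPM at 100 μg/mL, under its untreated range, and 16.6 to 32.3 CPM at 300 μg/mL. Neither passed at either dose, the smallest edgeR adjusted p of the pair being 0.264. Snhg1 had 27.4 ± 5.38 CPM and 29.0 ± 6.80 CPM, and its ranges overlapped the untreated ones. Beside Pvt1, Myc fell by 1.22 at 100 μg/mL (log2, adjusted p = 0.00765) and by 1.02 at 300 μg/mL (adjusted p = 0.0243).

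In total, treated and untreated SnCs had separate ranges in CPM for 6 of the 8 RNAs at 100 μg/mL (26.2% of all genes) and for 2 of the 8 at 300 μg/mL (19.6% of all genes). At 100 μg/mL these were H19, Neat1, Meg3 and Trp53cor1 above and Gas5 and Pvt1 below the untreated values. At 300 μg/mL they were H19 and Neat1.

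Between the doses, 0 of the 8 RNAs other than Snhg11 were DEGs by edgeR or by DESeq2, with 0 at an unadjusted p under 0.05 in edgeR, and 0.00665% of all genes were DEGs. The log2 difference (300 against 100 μg/mL, SE) of H19 was 0.04 ± 0.51, of Neat1 0.27 ± 0.23 and of Malat1 −0.05 ± 0.34. Values of the doses overlapped for 9 of 9, Snhg11 included as a description, beside 7.54% of all genes without overlap. With these errors, differences between the doses were not detectable, which does not show that the doses act alike.

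**Figure D5:**
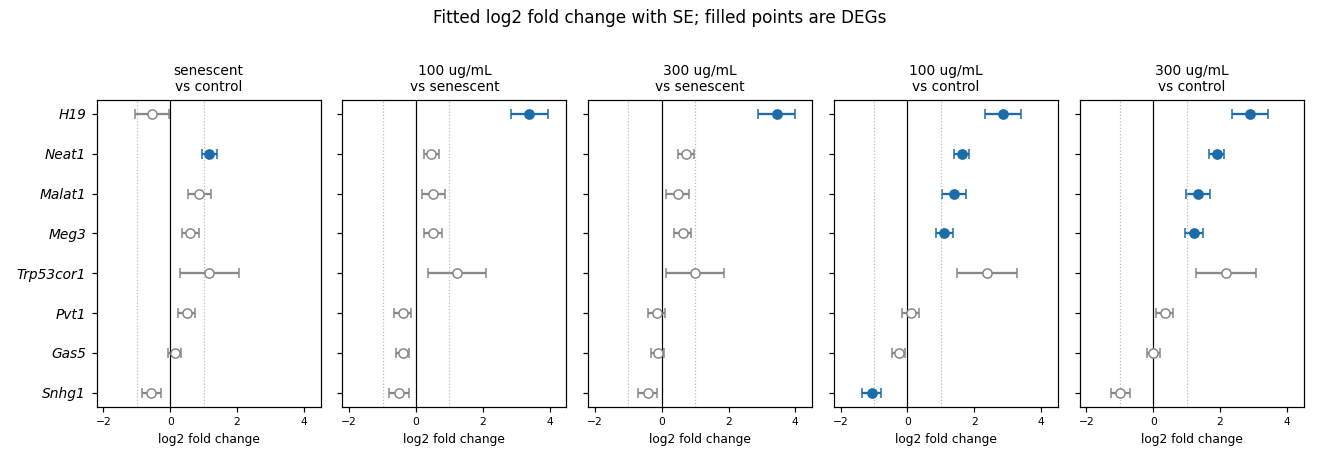
Log2 fold change with SE (edgeR) of the 8 RNAs other than Snhg11 in 5 comparisons, with dotted lines at −1 and 1 and filled points for DEGs. H19 lies at 3.39 and 3.44 for the doses against untreated SnCs, and 5 RNAs at 100 μg/mL and 4 at 300 μg/mL are DEGs against control MEFs.

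Treated SnCs were also set against control MEFs, a comparison that holds both etoposide and Fucoidan-FV and shares its libraries with those above. At 100 μg/mL 5 of the 8 RNAs were DEGs (4 higher and 1 lower) and at 300 μg/mL 4 of the 8 (4 higher and 0 lower). The background over all genes was 19.7% for the lower dose, made up of 10.3% higher and 9.37% lower. For 300 μg/mL it was 18%, made up of 9.87% and 8.11%. Of the long noncoding RNA genes 10.6% and 10.8% were DEGs. H19, Neat1, Malat1 and Meg3 rose at both doses and Snhg1 fell at 100 μg/mL. Ranges in CPM were separate for 6 of the 8 at each dose, beside 48.3% and 43.3% of all genes. The median log2 fold change of the 8 was 1.25 and 1.28, beside 0.09 and 0.07 over all genes.

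Neat1 rose by 1.63 at 100 μg/mL (log2, SE 0.23, edgeR adjusted p = 0.000266) and by 1.90 at 300 μg/mL (SE 0.23, adjusted p = 9.87e-05), with 3 of 3 mice higher by 2.74-fold or more. The call at 100 μg/mL was lost when offsets for single-transcript sequence were combined with the mouse as a block (1.16, adjusted p = 0.0727). Malat1 rose by 1.39 (SE 0.35, adjusted p = 0.00998) and 1.34 (SE 0.35, adjusted p = 0.0128). The call of Malat1 at 300 μg/mL was lost without control mouse 4 (1.31, adjusted p = 0.0652), control mouse 5 (1.24, adjusted p = 0.0723) or treated mouse 5 (1.19, adjusted p = 0.0505).

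Meg3 rose by 1.11 (log2, SE 0.26, edgeR adjusted p = 0.0071) and 1.22 (SE 0.26, adjusted p = 0.00439). Without mouse 5 at 100 μg/mL or mouse 4 at 300 μg/mL it stood just under the fold threshold, at 0.99 and 0.97. H19 rose by 2.86 (SE 0.54, adjusted p = 0.00187) and 2.90 (SE 0.54, adjusted p = 0.00185), and by 2.01 without mouse 6 at 100 μg/mL.

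Snhg1 fell by 1.07 at 100 μg/mL (log2, SE 0.29, edgeR adjusted p = 0.0145), from 46.8 to 77.0 CPM in control MEFs to 23.3 to 33.5 CPM. In TPM the fall of Snhg1 was smaller, from 155 ± 27.5 to 116 ± 17.4 TPM, and the ranges overlapped slightly. At 300 μg/mL its log2 fold change was −0.99 (adjusted p = 0.023), just short of the fold threshold. Without control mouse 6, its highest sample, it was −0.65 at 100 μg/mL (adjusted p = 0.0863), and the call was also lost without treated mouse 4 (adjusted p = 0.0591) or mouse 5 (adjusted p = 0.0662), and in 3 other alternatives it stood just under the fold threshold. The span of Snhg1 overlaps that of Slc3a2, an amino acid transporter subunit on the opposite strand, by 790 bases, and Slc3a2 fell by 1.17 at 100 μg/mL (adjusted p = 0.00065), so reads of the pair may not be told apart if strand was not used.

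Of the 15 other snoRNA host genes tested, 6 fell and 0 rose at 100 μg/mL against control MEFs, and 3 fell at 300 μg/mL, with medians of −0.63 and −0.68 (log2 fold change). Over all genes 9.37% and 8.11% were lower DEGs, and the medians were 0.09 and 0.07. Snhg8 (−1.51 and −1.53), Snhg16 (−1.47 and −1.14) and Snhg4 (−2.30 and −2.44), counted here on the more abundant of its gene identifiers, were DEGs at both doses. Over the alternatives the count was 2 to 6 at 100 μg/mL, with the lowest without control mouse 6, and 1 to 5 at 300 μg/mL, 1 without treated mouse 5 and 5 without treated mouse 4. Spliced snoRNA hosts are substrates of nonsense-mediated decay, and of 12 genes of that pathway 0 were DEGs in any comparison by edgeR.

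Gas5 did not follow Snhg1. Its estimates against control MEFs were −0.27 ± 0.19 at 100 μg/mL and 0.01 ± 0.19 at 300 μg/mL (log2 fold change, SE, edgeR adjusted p = 0.329 and 0.977). Pvt1 had 0.09 ± 0.25 and 0.34 ± 0.25. In TPM, which was not tested, Gas5 was higher at both doses (544 to 656 and 537 to 662 TPM) than in control MEFs (365 to 380 TPM). Trp53cor1 had estimates of 2.39 ± 0.91 and 2.17 ± 0.90 (adjusted p = 0.0678 and 0.0979) and was a DEG at both doses with DESeq2 (adjusted p = 0.00662 and 0.0189) and without the count filter (edgeR adjusted p = 0.0176 and 0.04).

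Of 20 other long noncoding RNAs tested, 2 fell and 0 rose at 100 μg/mL against untreated SnCs, Morrbid (−1.46) and Mir100hg (−1.14), and Morrbid fell by 1.37 at 300 μg/mL (edgeR adjusted p = 0.0159, 0.0407 and 0.0297). Morrbid, a regulator of the cell death gene Bcl2l11, had 37.2 ± 13.4 CPM in untreated SnCs, 13.5 ± 2.66 CPM at 100 μg/mL and 14.4 ± 1.48 CPM at 300 μg/mL, but the call was lost without untreated mouse 5 (adjusted p = 0.059 and 0.0666) or untreated mouse 6 (adjusted p = 0.0722 and 0.0852) and without some of the treated mice, and that of Mir100hg without any of the 6 samples. Against control MEFs, Dnm3os, the host of miR-199a and miR-214, rose by 2.20 and 2.47, from 25.1 to 49.6 CPM to 149 to 193 CPM and 152 to 274 CPM.

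The mean transcript length that RSEM estimates for a gene, weighted by the abundance of its isoforms, was also examined. It comes from the same libraries as the counts and is not an independent readout. Malat1 averaged 1818 ± 591 bases in control MEFs and 2226 ± 784 bases in untreated SnCs, far under its longest annotated transcript of 7886 bases, and Neat1 3472 ± 452 and 3592 ± 121 bases, where the longest has 22397 bases. Gas5 was shorter in each senescent sample (574, 592 and 560 bases) than in control MEFs (628, 622 and 711 bases), and so, narrowly, was Snhg1 (685 ± 4.23 against 726 ± 46.4 bases). An exact two-sided permutation test gave p = 0.1 for both, the smallest that 3 samples against 3 allow, and 0.35 after adjustment over 7 RNAs. The lengths of control mouse 5 are averages of its libraries, which differed. Gas5 had 657 and 587 bases in them, the lower value being below that of senescent mouse 5 (592 bases). Snhg1 had 677 and 702 bases, the lower value being below each senescent value (681 to 689 bases). Neither separation held with the library of the lower value alone.

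Pvt1 was longer with Fucoidan-FV (1544 ± 64.2 and 1528 ± 116 bases) than in untreated SnCs (1382 ± 70.9 bases), without overlap at either dose (exact permutation p = 0.1, adjusted p = 0.9 over 9 RNAs). At 300 μg/mL the gap was narrow, with a lowest treated value of 1459 bases and a highest untreated value of 1455 bases. The other 8 RNAs overlapped in length between treated and untreated SnCs at both doses. No share over all genes was set beside these separations in length.

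For each RNA whose group means spanned more than 1 on the log2 scale, the tested genes closest in pattern were found by the root mean square difference of centred log2 CPM over the 12 samples, a description without a test. The genes most like H19 were Fndc1 (0.51), with 17.7 CPM in untreated SnCs and 126 CPM at 100 μg/mL, and Ptn (0.56). Neat1 was closest to Dzip1 (0.19) and Ccdc80 (0.19), and Malat1 to Slc35a5 (0.19) and Ankrd12 (0.21). Meg3 was closest to Rsrp1 (0.15) and Tecpr1 (0.24), and Snhg1 to Wdr12 (0.14) and Lars1 (0.14). Snhg11, whose values are partly 0, was closest to Wdr72 (0.69) and Scn3b (0.78), which were also near 0 in control MEFs, and Trp53cor1 to Nckap5 (0.47) and Nr1h3 (0.47). The points share libraries and depth.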

How the data were processed

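RNA-Seq libraries of MEFs were made with a stranded total RNA kit. The authors aligned reads to GRCm39 with STAR 2.7.11b and counted genes with RSEM 1.3.1, for which a strand setting is not given in the sources used here. The deposited files hold RSEM's expected counts per gene, not normalized. The authors' TPM served for levels per length, and the deposited RSEM transcript length of each gene for the isoform readout.

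Expected counts were rounded. Library 5(1) and library 5(2) were summed, or averaged for TPM and length. Genes kept by filterByExpr (minimum count 10, total 15) were tested in edgeR 4.0.16 (R 4.3.3) with its quasi-likelihood method and TMM scaling, in a single fit of the 4 groups. P-values were adjusted by Benjamini-Hochberg over 15034 genes within each of the 6 comparisons. The SE printed with an edgeR log2 fold change was derived from the test. It is the absolute log2 fold change divided by the square root of the F statistic. The script was checked on simulated counts. Results were recomputed with DESeq2 1.42.0 and RLE scaling, without the filter, with only the groups compared, with the libraries of control mouse 5 alone or separate, with the mouse as a block, without each sample and with offsets for single-transcript sequence. The alternatives for gene lists were added after seeing the data.

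The RNAs and gene lists were chosen with earlier results of these data known. Named are the 9 RNAs, up to 4 DEGs of each list and comparison with the largest change, and neighbours or partners of an RNA. Some genes that this rule would name are not reported here. Mouse numbers in the labels pair samples across groups. Deviations from the group mean correlated between same-numbered samples with a median of −0.0063 over 18 pairs (−0.20 to 0.43), 8 of them over 0.1. Library totals of 22782536 to 31278750 counts limit what could be detected for rare RNAs. The methods call the replicates of a group biological and independent, and the labels number them by mouse but do not say whether samples were cultured separately, so p-values measure the spread between these samples.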

Additional observations from a re-analysis of the deposited data

How the results depend on the processing

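Of the values of the RNAs under alternatives, 723 kept direction and call, 15 lost a call, 15 gained one and 31 changed sign. They include the fitted difference of Snhg11 between the doses, a description only, which changed sign in 1 alternative. H19 in the 4 comparisons of treated SnCs with untreated SnCs or control MEFs, Neat1 at 300 μg/mL against control MEFs and Malat1 at 100 μg/mL against control MEFs kept their calls under each of 16 alternatives. The count of DEGs in senescent against control MEFs, 1, was 0 with offsets for single-transcript sequence, alone or with the mouse as a block, and ran from 0 (without senescent mouse 5) to 2 (without senescent mouse 6) with a sample left out. The count at 100 μg/mL against control MEFs, 5, went down to 3 without treated mouse 5. In this comparison Trp53cor1 gained a call in 5 of the 16 alternatives, and Snhg1 lost its call in 6. With the mouse as a replicate block alone the counts stayed 1, 1, 1, 0, 5 and 4, and no call on the RNAs changed. Low counts limit Trp53cor1 and Snhg11, and with 3 mice a group the length tests cannot pass.

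The values that changed sign were small and uncalled. With a sample left out, the log2 difference between the doses ran from −0.24 to 0.98 for Snhg11, −0.24 to 0.11 for Malat1, −0.13 to 0.36 for Meg3, −0.43 to 0.88 for H19, −0.12 to 0.26 for Snhg1, −0.019 to 0.46 for Pvt1 and −0.47 to 0.11 for Trp53cor1. That of 300 μg/mL against untreated SnCs ran from −0.26 to 0.017 for Gas5 and −0.42 to 0.062 for Pvt1, and Gas5 against control MEFs from −0.33 to 0.057 at 100 μg/mL and −0.13 to 0.22 at 300 μg/mL. H19 between the doses was −0.0072 with DESeq2, −0.0089 with RLE factors, −0.0031 with only the groups compared and −0.0012 with the offsets. With the offsets Snhg1 between the doses was −0.056 and Gas5 at 300 μg/mL against control MEFs −0.16, and with the offsets and the mouse as a block they were −0.038 and −0.16, and Neat1 at 100 μg/mL against untreated SnCs was −0.022. Without the filter Gas5 at 300 μg/mL against control MEFs was −0.0080. The cause was not tested for any of these.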
